A study of Mus musculus with 8 samples.

Results

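The genes of vasoactive signalling described here were *Edn1*, *Ednra*, *Ednrb*, *Agtr1a*, *Ace*, *Nos3*, *Gucy1a1*, *Gucy1b1* and *Npr3*, 9 of the 46517 genes counted in single cells of the mouse liver. They were listed by name, as the ligand, the receptors and the enzymes through which vessels are told to constrict or relax. The choice was made with earlier results of these data known. The study sorted single liver cells of healthy adult mice and sequenced each by Smart-seq2, which reads full-length polyadenylated RNA. Mesenchymal cells came from C57BL6/J mice heterozygous for a reporter (Pdgfrb GFP, Pdgfra H2bGFP or Acta2 GFP) or were stained for PDGFRα, so the promoter of the reporter limits which of them could be caught. Endothelial cells were taken by antibodies against CD31 or VE-cadherin or by Cldn5 GFP, cholangiocytes by EPCAM, Kupffer cells by CD68, and hepatocytes as living cells with no selection.

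The 3491 cells fell into 8 pools, the male and the female cells of the endothelial, mesenchymal, immune and parenchymal class. Male and female pools had, in turn, 655 and 451 endothelial, 998 and 339 mesenchymal, 255 and 396 immune, and 358 and 39 parenchymal cells. A cell had from 47063 to 1128421 counts, with 228708 as the median, once the 92 spike-in sequences were left out. No label names the mouse, so the pool was the replicate (2 per class) and p-values measure only the spread between these pools. Each of the 22 plates carried a single sex, all female mesenchymal cells shared 1 plate, and sex and plate cannot be told apart. No cell name occurred in more than 1 pool. Clusters carry the numbers and names of the study, which drew them on these same transcriptomes, so part of any difference between clusters is built in. The class labels fitted their markers. The 5 endothelial markers summed to 7912 CPM (counts scaled to the total of their library) in endothelial cells, 486 in immune cells and at most 54.9 in the other classes, and *Pdgfra* and *Pdgfrb* to 1416 CPM in mesenchymal cells against at most 12.6 elsewhere.

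Endothelin-1, the peptide made from *Edn1*, is a vasoconstrictor that acts on 2 receptors. The receptor encoded by *Ednra* contracts smooth muscle, while that encoded by *Ednrb* can contract mural cells and, on endothelium, releases nitric oxide and clears the peptide. *Ace* encodes the membrane enzyme that makes angiotensin II, and *Agtr1a* its constrictor receptor. *Nos3* encodes the endothelial nitric oxide synthase, whose product relaxes neighbouring mural cells by binding soluble guanylate cyclase, a dimer of the subunits encoded by *Gucy1a1* and *Gucy1b1*. *Npr3* encodes the receptor that removes natriuretic peptides. In the liver these signals set the tone of portal vessels and of the stellate cells that wrap the sinusoids.

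Promoter windows are shown for the ligand *Edn1*, for the 2 endothelin receptors, which parted between arterial and venous muscle, and for the 2 cyclase subunits, which moved together. They are RefSeq sequence of GRCm38.p6, the 250 bases before a RefSeq start site, cut at the first base that lies in an exon of the GENCODE gene model. The window of *Ednrb* belongs to a start site 701 bases inside that model and holds no exon base of it. They run 5′ to 3′ on the strand of the gene, and capitals mark matches to the motifs searched.
*Edn1*, chr13:42301226-42301475, plus strand: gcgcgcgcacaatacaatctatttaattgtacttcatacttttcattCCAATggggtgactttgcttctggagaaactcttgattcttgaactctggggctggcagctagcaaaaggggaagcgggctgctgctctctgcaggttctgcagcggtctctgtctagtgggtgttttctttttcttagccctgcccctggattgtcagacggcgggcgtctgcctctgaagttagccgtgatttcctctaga
*Ednra*, chr8:77724465-77724702, minus strand: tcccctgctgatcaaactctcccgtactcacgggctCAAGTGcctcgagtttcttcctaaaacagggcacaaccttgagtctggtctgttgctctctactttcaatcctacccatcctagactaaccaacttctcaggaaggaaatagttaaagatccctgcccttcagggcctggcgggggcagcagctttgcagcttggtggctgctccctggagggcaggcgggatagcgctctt
*Ednrb*, chr14:103843702-103843951, minus strand: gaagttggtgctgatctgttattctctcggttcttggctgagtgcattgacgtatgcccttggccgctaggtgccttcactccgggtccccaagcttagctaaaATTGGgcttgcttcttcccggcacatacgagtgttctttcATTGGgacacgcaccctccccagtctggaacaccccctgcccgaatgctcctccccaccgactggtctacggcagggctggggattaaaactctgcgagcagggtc
*Gucy1a1*, chr3:82145790-82145900, minus strand: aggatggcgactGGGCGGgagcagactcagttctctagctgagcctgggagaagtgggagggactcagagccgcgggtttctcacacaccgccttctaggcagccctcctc
*Gucy1b1*, chr3:82074712-82074961, minus strand: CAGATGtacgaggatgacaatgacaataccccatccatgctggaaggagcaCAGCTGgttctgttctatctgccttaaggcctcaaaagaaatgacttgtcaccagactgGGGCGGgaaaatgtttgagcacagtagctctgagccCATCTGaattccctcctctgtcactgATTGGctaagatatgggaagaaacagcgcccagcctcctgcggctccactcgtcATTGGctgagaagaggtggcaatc

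The motifs, searched on both strands, were the GC box GGGCGG, the CCAAT box CCAAT, the TATA box TATAAA, the E-box CANNTG, the AP-1 site TGANTCA, the GATA site AGATAA and the CArG box. Of 32851 windows of this length, 32.7%, 33.8%, 12.4%, 66.2%, 6.75%, 9.99% and 1.47% held them, in that order. *Edn1* held a CCAAT box, *Ednrb* held 2 and *Ednra* held an E-box. The subunit pair shared a GC box and the E-box, which in *Gucy1a1* lay in the part of the window that is not printed, and *Gucy1b1* held 3 E-boxes and also 2 CCAAT boxes. The letters of the AP-1, GATA and CArG motifs were in none of these windows. *Ace* and *Npr3* also had a window, and *Agtr1a* and *Nos3* were not matched. *Gucy1a1* (chromosome 3, 82092427 to 82145789) and *Gucy1b1* (chromosome 3, 82032006 to 82074689) are neighbours on the minus strand with 17737 bases between them.

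Across the liver, *Npr3* was called higher in both the endothelial and the mesenchymal class and *Agtr1a* in the mesenchymal and the parenchymal class, while *Edn1*, *Nos3* and *Ace* were called higher in the endothelial class and *Ednra*, *Ednrb*, *Gucy1a1* and *Gucy1b1* in the mesenchymal class. For tests, the cells of each class or cluster in a pool were added up and fitted with edgeR across all genes. A gene was called at an adjusted p under 0.05 (quasi-likelihood test with Benjamini-Hochberg adjustment, given below as edgeR adjusted p) plus a log2 fold change of at least 1 in either direction. Over 18 comparisons, which share sums among them, 155 tests of these genes could be made and 49 were called, where 5.89% of the 371670 tests of all genes were called. Because earlier results were known when the genes were chosen, shares of all genes, here and below, are descriptions and do not test the set. Of the 49, 46 had the same sign in both pools, 1 had opposite signs and 2 could be seen in 1 pool only. The pools are also the replicates of the test, so this agreement is largely built into the calls.

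**Figure D1:**
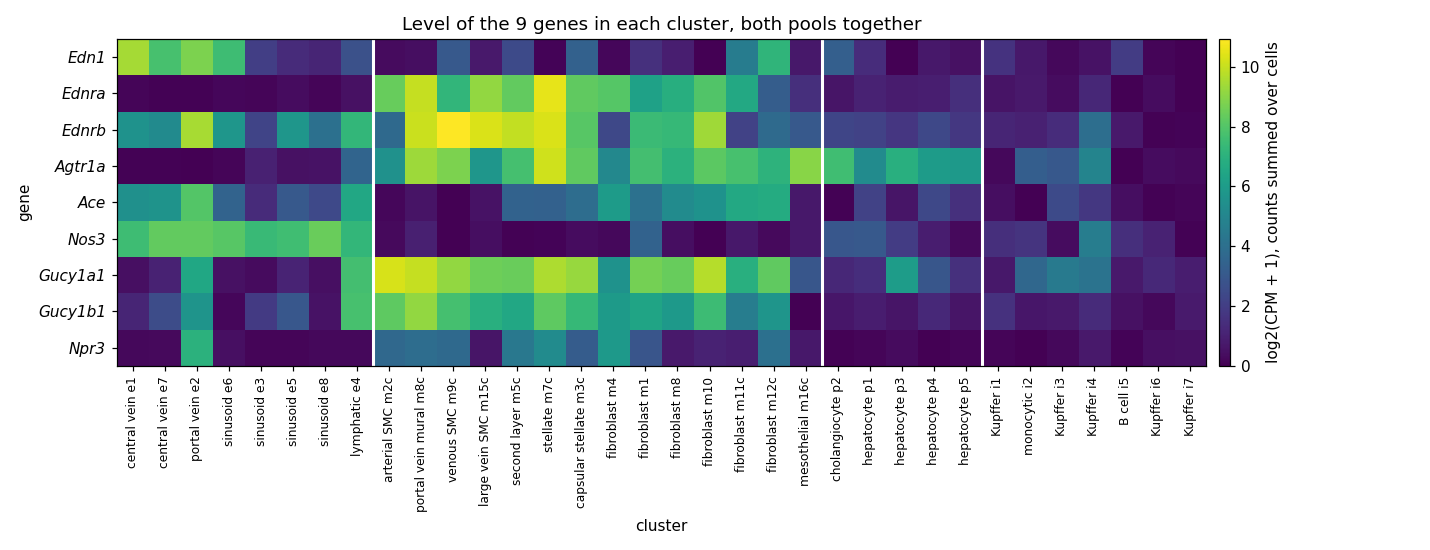
Level of the 9 genes (rows) in 34 clusters (columns), as log2(CPM + 1) of counts summed over both pools. White lines part endothelial, mesenchymal, parenchymal and immune clusters. *Edn1* was highest in central vein #e1 (712 CPM), *Ednra* in stellate cells #m7c (1479 CPM) and *Ednrb* in venous SMC #m9c (1958 CPM), while *Nos3* spread over all endothelial clusters.

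In the endothelial class against the other 3 classes, 4 of 9 genes were called higher and 2 lower, where 5.33% and 2.96% of all 24046 genes tested were called higher and lower. *Edn1* stood at 200 (male) and 277 CPM (female) in the endothelial pools, against at most 13 CPM in any other pool (log2 fold change 6.03 ± 0.81 SE, edgeR adjusted p = 0.0046). *Nos3* stood at 211 and 274 CPM against at most 7.97 CPM elsewhere (6.24 ± 0.74, edgeR adjusted p = 0.0029). Neither gene's endothelial pools overlapped with the rest, a description of 2 pools per class and not a further test. *Ace* (4.10 ± 0.72, edgeR adjusted p = 0.013) and *Npr3* (4.62 ± 0.91, edgeR adjusted p = 0.020) were also called higher, although their levels were far lower. *Ednra* and *Agtr1a* were called lower, at 0.120 and 0.564 CPM over all endothelial cells.

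In the mesenchymal class 6 of 9 genes were called higher and 0 lower, against 9.47% higher and 2.33% lower of all genes. *Ednra* stood at 394 (male) and 159 CPM (female) in the mesenchymal pools and below 1 CPM in each of the other 6 pools (10.01 ± 0.77, edgeR adjusted p = 3.4e-04). *Gucy1a1* was at 607 and 570 CPM (6.45 ± 0.46, edgeR adjusted p = 2.8e-04) and *Gucy1b1* at 191 and 123 CPM (6.50 ± 0.66, edgeR adjusted p = 8.8e-04). For these 3 genes the mesenchymal pools lay above every other pool, which describes 2 pools per class and is not a further test. *Ednrb* was at 477 and 282 CPM, with the endothelial pools at 96.9 and 153 CPM in between (4.81 ± 0.78, edgeR adjusted p = 0.0061). *Npr3* was called higher in this class too (4.10 ± 0.90, edgeR adjusted p = 0.022), at 15.4 and 11 CPM, and no parenchymal or immune pool exceeded 0.409 CPM.

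In parenchymal cells *Agtr1a* alone was called higher and 2 genes lower, against 8.37% and 4.05% of all genes. *Agtr1a* was at 144 and 133 CPM in the male and female parenchymal pools (4.09 ± 0.65, edgeR adjusted p = 0.0058), below the 281 and 165 CPM of mesenchymal cells. The cyclase subunits were the ones called lower. With the pool as a block, *Ednra* (-2.00, edgeR adjusted p = 0.037) and *Npr3* (-5.06, edgeR adjusted p = 0.040) were called lower as well. In immune cells 0 genes were called higher and 5 lower, against 7.92% and 5.25% of all genes, namely *Edn1*, *Ednrb*, *Ace*, *Gucy1a1* and *Gucy1b1*. The block added *Agtr1a* (-2.48, edgeR adjusted p = 0.039) and *Ednra* (-2.73, edgeR adjusted p = 0.0088). Leaving out a pool moved the immune values of *Edn1* from -4.64 to -8.05 without the male and -3.72 without the female pools, and of *Gucy1b1* from -3.40 to -0.83 without the male pools. For *Gucy1b1* in parenchymal cells, where the female pool held 0 counts, the value went from -4.63 to -12.92 without the male pools.

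*Gucy1a1* was counted (at least 1 count in the cell) in 86.8% of mesenchymal cells (exact 95% binomial interval 84.9% to 88.6%), *Ednra* in 71.1% and *Ednrb* in 68.2%. *Nos3* was counted in 63.0% of endothelial cells and *Edn1* in 44.1%. The background was not nil, since *Nos3* was also counted in 4.19% of mesenchymal and 14.9% of immune cells and *Ednra* in 2.71% of endothelial cells. After each cell was thinned to 50000 counts, *Gucy1a1* remained in 75.3% of mesenchymal and *Nos3* in 48.7% of endothelial cells, with 1.20% of mesenchymal cells for *Nos3*. Reads carried no molecular identifiers, so intervals and limits given here cover counting error only.

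Among the endothelial clusters, *Edn1* (chromosome 13, 42301476 to 42307990, plus strand) was highest in those of veins. The paper reports that endothelial cells of the hepatic artery are absent from its data. Arterial endothelium is therefore not compared for any of these genes. Central vein cluster #e1 held it at 714 CPM in male cells and 709 CPM in female ones, and portal vein cluster #e2 held 433 and 443 CPM. The lymphatic cluster #e4 and the sinusoidal clusters #e3, #e5 and #e8 held at most 8.73 CPM in either pool. Clusters #e7 and #e6 lay in between. Cluster #e7, annotated to the central vein but grouped with sinusoidal cells in the fits, was at 224 and 203 CPM. Cluster #e6, named the last sinusoid, was at 353 and 110 CPM, so its pools spanned those of #e7.

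By the count of cells the order was the same at its top. *Edn1* was counted in 139 of 152 cells of #e1 (91.4%, interval 85.8% to 95.4%) and in 93 of 128 cells of #e2 (72.7%, 64.1% to 80.2%). It was counted in 67.0% of cells of #e6, 56.0% of #e7 and 17.8% of #e3, and 1.27% of #e3 cells reached 20 counts. Plate values here and below cover plates with at least 5 cells of the cluster. Within #e1, 5 of 13 plates ranged from 439 to 891 CPM with a median of 838 CPM, and within #e2, 8 of 14 plates ranged from 129 to 706 CPM. The plates of the 2 clusters overlapped.

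Against the other endothelial clusters, *Edn1* was called higher in #e1 (5.17 ± 0.41, edgeR adjusted p = 4.0e-06) and in #e2 (4.34 ± 0.42, edgeR adjusted p = 3.3e-05). In #e1 it was the only 1 of 8 genes tested that was called, where 1.32% of 18321 genes were called higher and 0.0873% lower. Set directly against each other, #e2 and #e1 did not differ beyond the error in *Edn1* (-0.73 ± 0.71, edgeR adjusted p = 1.0). None of the 8 genes was called in that comparison, in which 0.0273% of all genes were called higher and 0.0491% lower. Without adjustment 4 of the 8 (*Ednrb*, *Gucy1a1*, *Gucy1b1* and *Npr3*) had an edgeR p under 0.05, as did 5.97% of all genes, and DESeq2 called those 4 and 1.15% of all genes. The sinusoidal clusters #e3, #e5, #e6, #e7 and #e8 together were lower than #e1, #e2 and #e4 (-3.23 ± 0.38, edgeR adjusted p = 1.9e-04), and in #e4 *Edn1* was called lower than in the other 7 clusters (-2.58 ± 0.69, edgeR adjusted p = 0.032). The call in #e4 was lost with RLE normalization (edgeR adjusted p = 0.078), thinned cells (edgeR adjusted p = 0.087) and sums per plate (edgeR adjusted p = 0.87).

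Outside the endothelium *Edn1* was highest in 1 fibroblast cluster. Single plates also reached 129 CPM in capsular stellate cells #m3c, 57.5 CPM in venous SMC #m9c and 33.3 CPM in cholangiocytes #p2. *Wt1*+ fibroblasts #m12c held 124 and 151 CPM, and the related cluster #m11c held 27.4 CPM in the male and 0 counts in the 5 cells of the female pool. Only 17 of 60 cells of #m12c had a count (28.3%, interval 17.5% to 41.4%), and 3 of its 4 plates ran from 1.49 to 194 CPM. The 5 endothelial markers summed to 73.0 CPM in #m12c. Their part in the level of *Edn1* there was not tested.

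**Figure D2:**
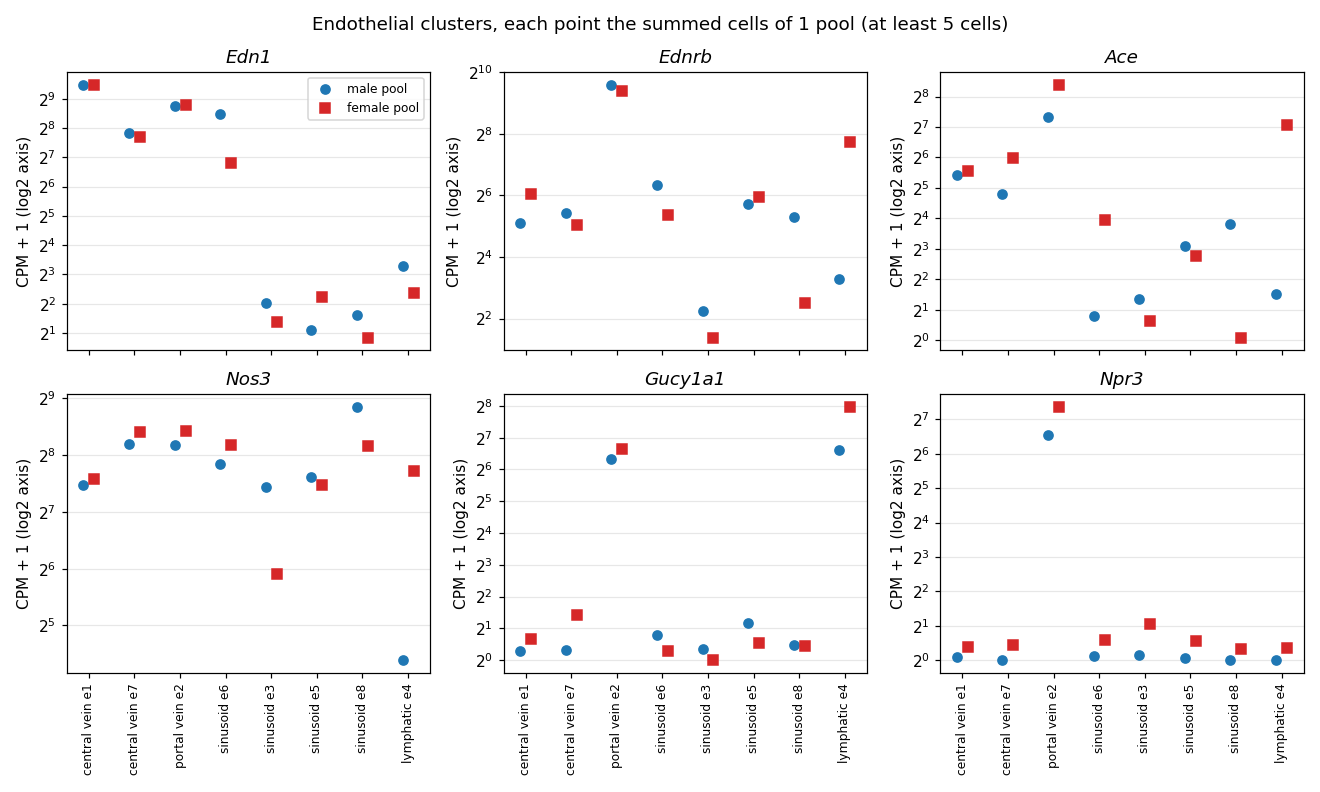
Level of 6 genes in the 8 endothelial clusters, with 1 point per pool (circles male, squares female, counts summed over at least 5 cells, CPM + 1 on a log2 axis). *Npr3* was at 93.1 and 163 CPM in portal vein #e2 and below 2 CPM in the other clusters, *Nos3* lay between 172 and 460 CPM apart from the male #e4 and the female #e3 pool, and the pools of #e4 stood apart from each other for *Ednrb* and *Ace*.

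The receptor for this ligand with the narrower distribution was *Ednra* (chromosome 8, 77663031 to 77724464, minus strand). Stellate cells #m7c, the vitamin A storing cells around the sinusoid, held 1594 CPM in the male pool, and the female pool had too few of these cells (4) for a sum. Mural cells of the portal vein #m8c held 1119 and 451 CPM, large-vein SMC #m15c 1220 and 437 CPM, and arterial SMC #m2c 471 and 242 CPM. The male value was higher than the female value in each of these. Capsular stellate cells #m3c were at 317 and 262 CPM, second layer cells #m5c at 403 and 129 CPM and venous SMC #m9c at 185 and 88.4 CPM. From #m15c down to peribiliary fibroblasts #m4 (294 and 70.2 CPM), each cluster's pools overlapped with those of the next.

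*Ednra* was counted in 93.1% of #m7c cells, 77.1% of #m2c cells and 55.0% of #m12c cells, but only 1.67% of #m12c cells reached 20 counts. It was the single gene of the 9 that was too low to be tested among endothelial clusters, where no cluster exceeded 0.386 CPM.

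*Ednrb* (chromosome 14, 103814625 to 103844402, minus strand) had a wider distribution and split the smooth muscle in 2. Venous SMC #m9c held 2118 and 1722 CPM, #m15c 1606 and 1213 CPM, and #m8c 1167 and 658 CPM. Arterial SMC #m2c held 12.7 and 12 CPM. The lowest venous pool was therefore far above both arterial pools. The same was seen by plate, with 1128 to 3014 CPM over 4 of 7 plates of #m9c and 1.05 to 23.9 CPM over 4 of 6 plates of #m2c. In arterial against venous SMC, *Ednrb* was the 1 gene of 9 called, and it was lower (-6.71 ± 0.87, edgeR adjusted p = 9.9e-05), where 0.904% of 21342 genes were called higher and 0.722% lower. *Ednra* did not differ beyond its error in that comparison (-0.22 ± 0.71, edgeR adjusted p = 1.0).

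Arterial SMC still gave some counts of *Ednrb*, in 129 of 236 cells (54.7%, interval 48.1% to 61.1%), yet 1.27% of them reached 20 counts and 20.3% had a count after thinning. In #m9c, 92.3% of cells reached 20 counts. Stellate cells #m7c were at 1221 CPM in the male pool and second layer cells #m5c at 1158 and 638 CPM. Fibroblasts were uneven, from 657 CPM in portal fibroblasts #m10 (male cells only) to 3.46 CPM in *Wt1*+ cells #m11c and 4.23 CPM in peribiliary cells #m4 over both pools.

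On the endothelial side *Ednrb* marked the portal vein. Cluster #e2 held 778 and 668 CPM, and no other endothelial pool exceeded 212 CPM. The 8 plates summed ranged from 373 to 1246 CPM. *Ednrb* was called higher in #e2 (4.42 ± 0.62, edgeR adjusted p = 0.0012) and lower in the sinusoidal group (-2.68 ± 0.56, edgeR adjusted p = 0.017, and 0.068 with sums per plate). The second value went to -3.80 without the male and -1.09 without the female pools. In #e1 against the other clusters *Ednrb* was not called.

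In single cells of #e2, 65 of 128 held both *Edn1* and *Ednrb* (50.8%, interval 41.8% to 59.7%), and 31.5% did after thinning. Ligand and *Ednrb* were thus read in the same endothelial cells. Both receptor genes were read together in 90.9% of #m15c cells, 86.1% of #m8c cells and 84.7% of #m7c cells. In #m2c that share was 48.7% and dropped by thinning to 15.3%, the level of 1 or a few counts of *Ednrb* per cell.

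**Figure D3:**
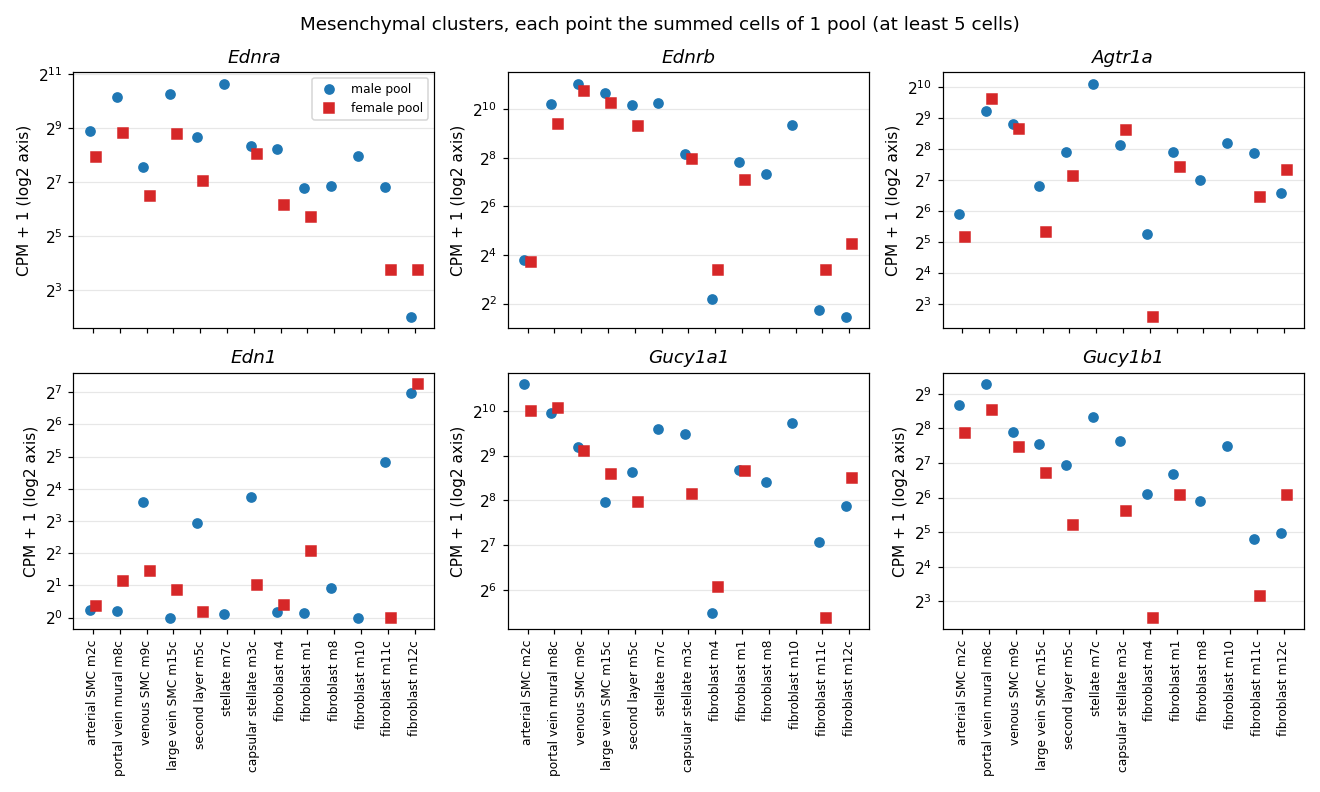
Level of 6 genes in 13 mesenchymal clusters, with 1 point per pool (circles male, squares female, counts summed over at least 5 cells, CPM + 1 on a log2 axis). Arterial SMC #m2c had *Ednrb* at 12.7 and 12 CPM beside 1722 and 2118 CPM in venous SMC #m9c, and *Edn1* exceeded 100 CPM in both pools of #m12c and in no other cluster of the class.

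Setting all smooth muscle clusters against fibroblasts, 4 of 9 genes were called higher and 1 lower, against 1.29% higher and 2.58% lower of all genes. *Ednrb* rose by 3.19 ± 0.38 (edgeR adjusted p = 8.5e-06), *Ednra* by 2.42 ± 0.45 (edgeR adjusted p = 0.0015), *Gucy1b1* by 2.20 ± 0.48 (edgeR adjusted p = 0.0066) and *Gucy1a1* by 1.54 ± 0.26 (edgeR adjusted p = 6.2e-04). With sums per plate *Ednra* (2.04, edgeR adjusted p = 0.12) and *Gucy1a1* (1.48, edgeR adjusted p = 0.088) were not called. Without the male pools the subunit values were 3.33 and 2.33. Stellate cells of both kinds against fibroblasts gave 4 genes higher and 0 lower, against 0.764% and 0.520% of all genes. They were *Ednra* (3.13 ± 0.54, edgeR adjusted p = 0.0029), *Ednrb* (3.65 ± 0.45, edgeR adjusted p = 7.9e-05), *Agtr1a* (2.29 ± 0.44, edgeR adjusted p = 0.0070) and *Gucy1a1* (1.39 ± 0.34, edgeR adjusted p = 0.042). The last of these was not called with the pool as a block (1.34, edgeR adjusted p = 0.062) or with thinned cells (1.27, edgeR adjusted p = 0.12). Between stellate #m7c and capsular stellate #m3c cells 0 of 9 genes were called, where 0% and 0.0281% of all genes were called higher and lower. Only the male pool entered for #m7c, so the missing calls do not show equal levels. *Agtr1a*, *Ednra* and *Ednrb* (3 of 9) had an unadjusted edgeR p under 0.05, as did 3.13% of all genes, and DESeq2 called 0 of the 9 and 0.974% of all genes.

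*Agtr1a* (chromosome 13, 30336441 to 30382867, plus strand) peaked in stellate cells. The male pool of #m7c was at 1117 CPM, and 5 of its 8 plates ranged from 1008 to 1165 CPM. Mural cells of the portal vein #m8c held 599 and 794 CPM, venous SMC #m9c 450 and 408 CPM, and capsular stellate cells #m3c 284 and 391 CPM. Arterial SMC #m2c held 59.9 and 35.1 CPM and large-vein SMC #m15c 111 and 39.1 CPM. By pool, the order among muscle was therefore portal vein, then veins, with arteries and large veins lowest and not apart from each other. By plate, #m8c (204 to 794 CPM) and #m9c (70.2 to 709 CPM) overlapped. The lowest plate of #m9c lay within the range of #m2c (35.1 to 82.3 CPM). *Agtr1a* was counted in 90.3% of #m7c and 51.3% of #m2c cells, of which 76.4% and 3.81% reached 20 counts.

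Stellate cells against all smooth muscle gave 1 gene higher and 0 lower, against 1.09% and 0.169% of all genes, and it was *Agtr1a* (2.70 ± 0.60, edgeR adjusted p = 0.023). It was not called with the pool as a block (2.41, edgeR adjusted p = 0.068) or by DESeq2 (2.60, DESeq2 adjusted p = 0.057), and only the male pool entered for #m7c. *Agtr1a* was also the 1 gene called in portal vein mural cells against the other muscle clusters (2.59 ± 0.52, edgeR adjusted p = 0.038, and 0.51 with sums per plate), where 0.211% of all genes were called higher and 0.00937% lower. Arterial against venous SMC gave -2.47 ± 0.68 (edgeR adjusted p = 0.069), which was called with the block (-2.54, edgeR adjusted p = 0.041), with RLE normalization (0.042), thinned cells (0.047), sums of at least 10 cells (0.015) and no filter (0.0061), and by DESeq2 (DESeq2 adjusted p = 0.0019), but not with sums of at least 3 cells (0.068) or per plate (0.51).

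Fibroblasts and second layer cells held *Agtr1a* too. By plate it ranged from 50.3 to 319 CPM in #m10, 0.680 to 360 CPM in #m1 and 5.08 to 119 CPM in #m4. Second layer cells #m5c ranged from 90.2 to 381 CPM. Outside the mesenchymal class the place of *Agtr1a* was the epithelium. Cholangiocytes #p2, the cells of the bile duct, were at 197 and 136 CPM, with 6 of 8 plates between 118 and 229 CPM, and 119 of 194 cells had a count (61.3%, interval 54.1% to 68.2%). Hepatocyte clusters, as male cells, held 37.9 CPM (#p1, with 2 female cells) to 117 CPM (#p3). Cholangiocytes did not differ from hepatocytes beyond the error (0.63 ± 0.62, edgeR adjusted p = 0.43). The median of all genes in this comparison was 1.38, which is higher than the value of *Agtr1a*. The 1 gene of 8 called there was *Ace*, lower, against 28.6% higher and 8.67% lower of all genes. It rested on 2 counts in #p2 and on hepatocyte levels of at most 4.25 CPM, this fit had 1 residual degree of freedom, and the call was lost with thinned cells (edgeR adjusted p = 0.056) and with sums per plate (edgeR adjusted p = 0.12). The near-identical receptor gene *Agtr1b* reached at most 1.32 CPM in any cluster.

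*Agtr1a* was nearly absent from endothelium, with 1.01 CPM or less in every cluster but #e4. The 10.6 CPM of #e4 were 55 counts in 1 of 22 cells, a male cell. The call of *Agtr1a* as higher in #e4 (7.0 ± 1.36, edgeR adjusted p = 0.0042) rested on that cell. It was lost with the block (5.88, edgeR adjusted p = 0.051), and without the male pools the value was -1.72.

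*Ace* (chromosome 11, 105967945 to 105989964, plus strand) was highest over both pools in the portal vein, where #e2 held 160 and 336 CPM and the 8 plates summed ranged from 81.7 to 471 CPM. Central vein #e1 held 41.6 and 45.6 CPM and #e7 26.7 and 62.6 CPM, both below #e2 in each pool. *Ace* was called higher in #e2 (4.24 ± 1.0, edgeR adjusted p = 0.038), but not with the block (4.18, edgeR adjusted p = 0.080), with sums of at least 10 cells (4.04, edgeR adjusted p = 0.051) or by DESeq2 (4.15, DESeq2 adjusted p = 0.056). The sinusoidal group was at -3.63 (edgeR adjusted p = 0.051) and was called lower once #e7 was taken out of it (-4.37, edgeR adjusted p = 0.033).

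Fibroblasts carried *Ace* as well. *Wt1*+ fibroblasts #m12c held 168 and 61.5 CPM and peribiliary fibroblasts #m4 71.6 and 0.896 CPM, so the pools of #m4 were far apart. By plate, *Ace* ranged from 13.9 to 285 CPM in the other *Wt1*+ cluster #m11c. It ranged from 2.72 to 136 CPM in portal fibroblasts #m10 and from 0 to 63.4 CPM in #m1. Smooth muscle held almost none, with 0 counts in the 39 cells of #m9c, which allows a share of up to 7.69%, and 0.510 CPM or less in the other 3 clusters. *Ace* was called lower in smooth muscle than in fibroblasts (-8.50 ± 1.38, edgeR adjusted p = 4.3e-04), though not with sums per plate (-8.30, edgeR adjusted p = 0.060). Second layer cells #m5c, at 10.2 and 8.87 CPM, were called higher than smooth muscle in *Ace* (6.20 ± 1.49, edgeR adjusted p = 0.032), the 1 gene of 9 called there against 1.71% higher and 0.159% lower of all genes. This was lost with sums per plate (edgeR adjusted p = 0.14). The pools of #m12c and #e2 overlapped in *Ace*, since the male pool of #m12c was above that of #e2.

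*Nos3* (chromosome 5, 24364810 to 24384474, plus strand) was read in every endothelial cluster. It held 460 and 285 CPM in sinusoid #e8, 292 and 341 CPM in #e7, 288 and 343 CPM in #e2 and 177 and 191 CPM in #e1. Sinusoid #e3 was at 172 CPM in the male pool and 59.0 CPM in a female pool of 6 cells, and #e4 at 20 and 211 CPM. Apart from the female #e3 and the male #e4 pool, all endothelial pools lay between 172 and 460 CPM. Single plates varied more, from 3.50 to 1131 CPM over 6 plates of #e7, 205 to 1375 CPM over 5 of #e8 and 9.61 to 307 CPM over 5 of #e1. *Nos3* was not called in any comparison within the endothelium, with 0.60 ± 0.54 in #e2 (edgeR adjusted p = 1.0) and 0.33 in the sinusoidal group (edgeR adjusted p = 0.87).

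Counts of *Nos3* cannot be told apart from those of antisense genes by strand, since this library type keeps none. *Gm15587* shares 1040 exon bases with *Nos3* (25.2% of its exon length) and *Atg9b* shares 294 (7.12%). In single cells, *Nos3* and *Edn1* were read together in 100 of 152 cells of #e1 (65.8%) and 69 of 128 cells of #e2 (53.9%), so many venous cells held the constrictor and the relaxing enzyme side by side.

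The genes of the enzyme that receives nitric oxide were highest in mesenchymal clusters, in mural cells and also in stellate cells and some fibroblasts. By plate, *Gucy1a1* ranged from 143 to 1241 CPM in stellate cells #m7c and from 281 to 1027 CPM in capsular stellate cells #m3c. It ranged from 374 to 947 CPM in portal fibroblasts #m10 and from 43.0 to 66.6 CPM in peribiliary fibroblasts #m4. *Gucy1a1* held 1541 and 1017 CPM in arterial SMC #m2c, 993 and 1069 CPM in #m8c and 582 and 551 CPM in #m9c. *Gucy1b1* held 408 and 231 CPM in #m2c, 617 and 369 CPM in #m8c and 236 and 175 CPM in #m9c. Arterial SMC had thus the most *Gucy1a1*, and portal vein mural cells the most *Gucy1b1*, although the pools of these 2 clusters overlapped for both genes. Arterial and venous SMC did not differ by the test in *Gucy1a1* (1.23 ± 0.41, edgeR adjusted p = 0.15). Per kilobase of exon, #m8c held 145 CPM of either subunit, while #m2c held 175 CPM of *Gucy1a1* and 76.5 CPM of *Gucy1b1*.

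Both subunits were read in 64 of 72 cells of #m8c (88.9%, interval 79.3% to 95.1%) and in 187 of 236 cells of #m2c (79.2%, 73.5% to 84.2%). In peribiliary fibroblasts #m4, *Gucy1b1* at 15.5 CPM per kilobase was above *Gucy1a1* at 6.67 CPM per kilobase. Over 55 sums of a cluster and pool, the 2 genes had a Pearson r of 0.911 on log2(CPM + 1), the largest among the 36 pairs of the 9 genes. These sums share libraries within a pool and the value is a description.

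**Figure D4:**
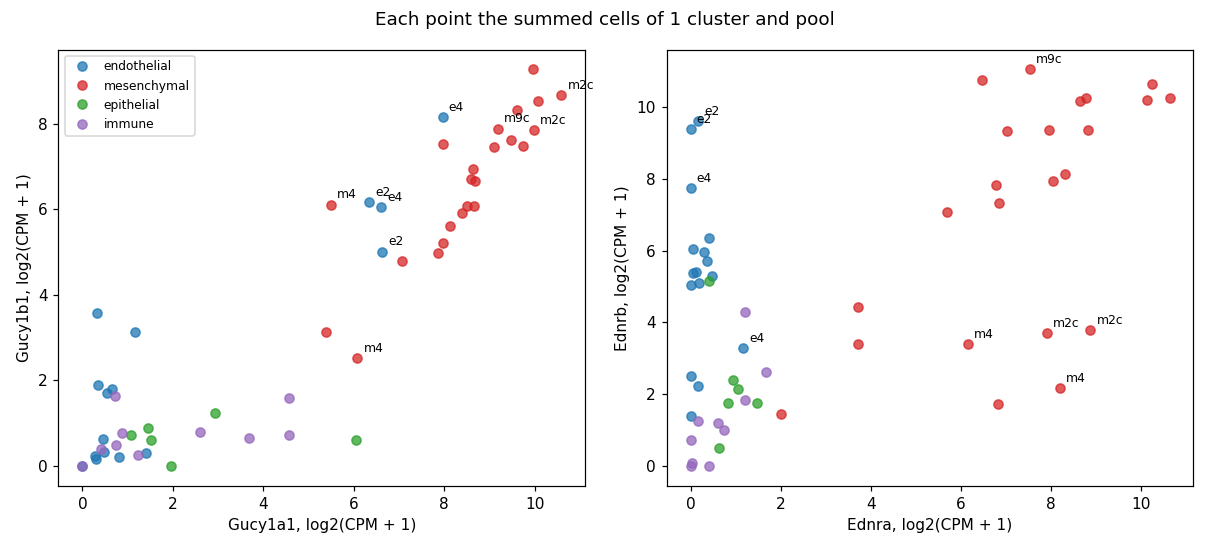
The cyclase subunits (left) and the 2 endothelin receptors (right) against each other as log2(CPM + 1), with each point the summed cells of 1 cluster and pool, coloured by class. The subunits rose together over 55 points, while arterial SMC #m2c and peribiliary fibroblasts #m4 had *Ednra* with little *Ednrb*, and endothelial #e2 had *Ednrb* with no *Ednra*.

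Within the endothelium the subunits were highest in #e2 and #e4. *Gucy1a1* was at 79.8 and 98.4 CPM in portal vein #e2 and at 96.1 and 249 CPM in lymphatic #e4, and at 1.13 CPM or less over the other clusters. *Gucy1b1* was at 70.7 and 31.3 CPM in #e2 and at 65.5 and 286 CPM in #e4. The other clusters held up to 11 CPM of it in a pool (male #e7), and single plates reached 32.8 CPM in #e7 and 15.5 CPM in #e5, so plates overlapped with #e2. For *Gucy1a1* both pools of #e2 and #e4 lay above every other endothelial pool. It was called higher in #e2 (6.26 ± 0.75, edgeR adjusted p = 3.6e-04) and in #e4 (7.37 ± 0.76, edgeR adjusted p = 2.1e-05). *Gucy1b1* was called higher in #e2 (4.34 ± 0.98, edgeR adjusted p = 0.032, with 4.25 and edgeR adjusted p = 0.066 under the block, and 4.48 and 0.056 with sums per plate) and in #e4 (6.37 ± 0.97, edgeR adjusted p = 7.5e-04).

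These levels came from a minority of cells. In #e2, 24 cells held only *Gucy1a1*, 25 only *Gucy1b1* and 6 held both (4.69%, interval 1.74% to 9.92%). The 8 plates summed in #e2 ranged from 0 to 370 CPM of *Gucy1a1*, with a median of 5.20 CPM. In #e4, 5 of 22 cells held both. *Pdgfra* and *Pdgfrb* summed to 0.455 CPM in #e2 and to 22.4 CPM in #e4, and 6 smooth muscle markers to 7.40 and 241 CPM, against 19393 CPM in #m2c. In the sinusoidal group *Gucy1a1* (-5.14 ± 0.74, edgeR adjusted p = 0.0013) and *Gucy1b1* (-4.23 ± 0.91, edgeR adjusted p = 0.022) were called lower. The second was at -7.09 without the male and -2.63 without the female pools.

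*Npr3* (chromosome 15, 11839896 to 11907287, minus strand) was the gene most confined to 1 endothelial cluster. It held 93.1 and 163 CPM in #e2, and no other endothelial cluster exceeded 0.360 CPM over both pools (9.10 ± 1.11, edgeR adjusted p = 3.8e-04). It was counted in 44 of 128 cells of #e2 (34.4%, interval 26.2% to 43.3%) and 7 of 152 cells of #e1 (4.61%), where 0 cells reached 20 counts. The 8 plates summed in #e2 ranged from 0 to 316 CPM. Peribiliary fibroblasts #m4 came next with 51.1 and 104 CPM, and the pools of #m4 and #e2 overlapped.

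Counting over all genes, portal vein #e2 had 6 of 8 genes called higher and 0 lower, where 1.85% of 18321 genes were called higher and 0.0819% lower. The 6 were *Edn1*, *Ednrb*, *Ace*, *Gucy1a1*, *Gucy1b1* and *Npr3*, and with the pool as a block 4 of them were called, without *Ace* and *Gucy1b1*. The median log2 fold change over the 8 genes was 4.34, and that over all genes was 0.18. The genes were chosen with earlier results of these data known, so setting them against all genes cannot show a trait of #e2. The sinusoidal group had 0 genes higher and 4 lower, against 0.759% and 1.16% of all genes. Lymphatic #e4 had 3 higher and 1 lower, against 4.92% and 1.88%.

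The portal cluster itself holds 114 vein cells (#e2c) and 14 cells of the peribiliary vascular plexus (#e5c, 5 male and 9 female). Levels over both pools were 496 and 34.9 CPM of *Edn1*, 288 and 27.1 CPM of *Ace*, and 150 and 0.230 CPM of *Npr3*, in #e2c and #e5c. *Ednrb* was at 765 and 385 CPM and *Nos3* at 333 and 209 CPM. None of the 8 genes was called between them, against 0.118% higher and 1.46% lower of all genes (edgeR adjusted p = 0.11 for *Edn1* at -3.83 ± 1.21, and 0.10 for *Npr3* at -9.17 ± 2.81). *Edn1* and *Npr3* (2 of 8) had an unadjusted edgeR p under 0.05 and were called by DESeq2, as were 19% and 10.2% of all genes.

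**Figure D5:**
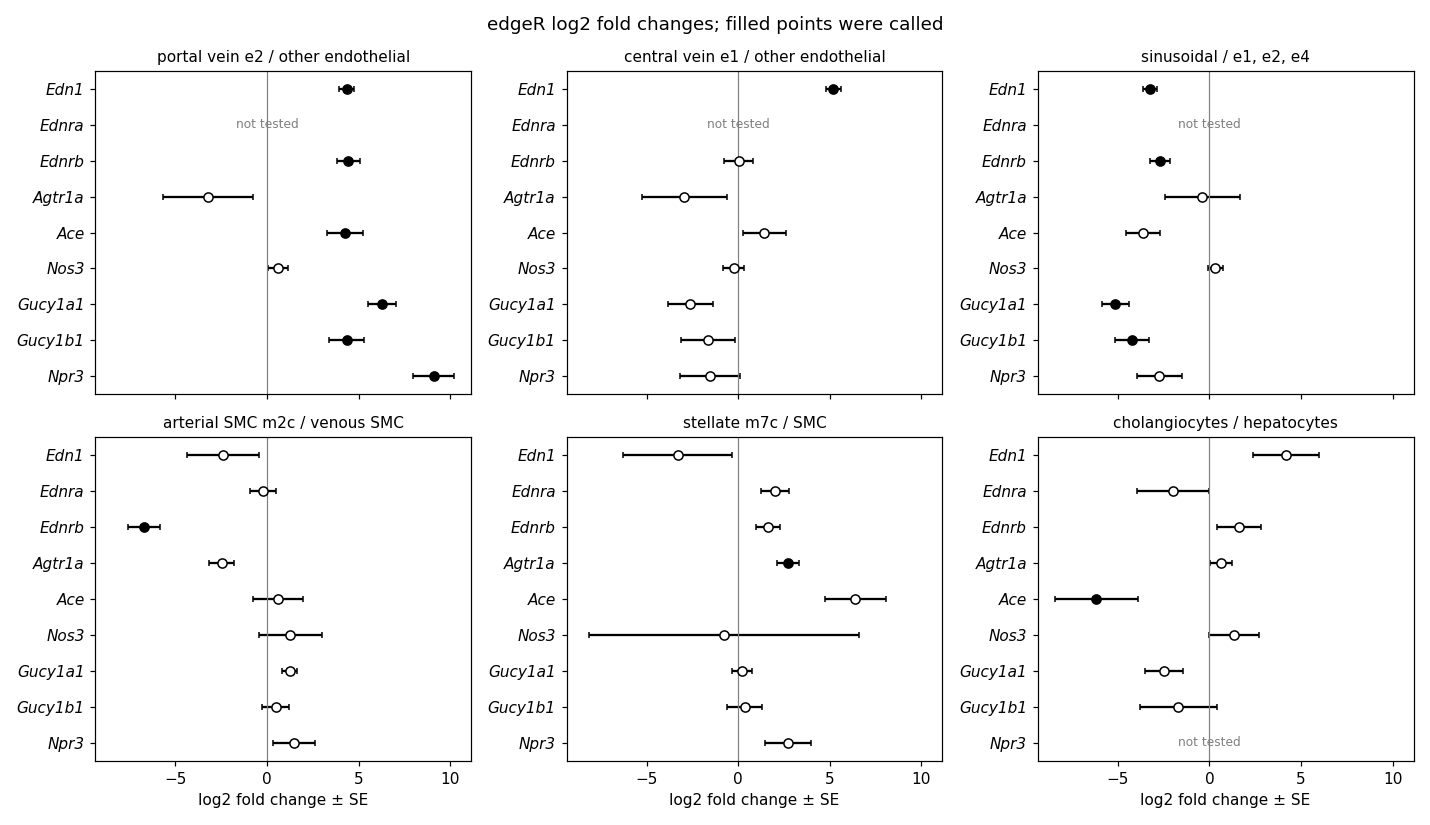
Log2 fold changes of the 9 genes with their SE in 6 comparisons, from edgeR, with filled points for genes that passed both limits of the call. In portal vein #e2, 6 of 8 genes were called higher, in #e1 only *Edn1*, in arterial against venous SMC only *Ednrb*, and in stellate cells against SMC only *Agtr1a*.

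Levels can be compared between genes only per length. Per kilobase of exon, endothelial #e1 was led by *Edn1* at 333 CPM with *Nos3* at 44.3 CPM. Portal #e2 held *Edn1* at 205 CPM, *Ednrb* at 168 CPM and *Nos3* at 77 CPM. Stellate cells #m7c held *Agtr1a* at 404 CPM, *Ednrb* at 296 CPM and *Ednra* at 270 CPM. Portal vein mural cells #m8c held the same genes at 228, 251 and 181 CPM. Venous SMC #m9c were led by *Ednrb* at 459 CPM, with *Ednra* at 26.7 CPM, and arterial SMC #m2c by *Gucy1a1*.

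Other genes of these pathways, from lists that leave out the 9 genes, gave the setting. The lists hold 6 endothelin, 12 renin-angiotensin, 15 nitric oxide and 9 natriuretic peptide genes, of which 4, 10, 13 and 6 could be tested between classes. In endothelial cells, where 5.33% of all genes were called higher and 2.96% lower, 1 of 4 endothelin genes was higher, *Ece1*, the enzyme that activates endothelin (2.36 ± 0.50, edgeR adjusted p = 0.026). It was at 1449.9 and 1986 CPM in #e1. The endothelin list had a median of -1.19, against 0.04 for all genes. In the nitric oxide list 3 of 13 were higher and 0 lower, namely *Ddah1* and *Ddah2*, which break down an inhibitor of the synthase, and *Nostrin*, which binds it. Of the natriuretic list 3 of 6 were higher, including *Npr1*, the signalling receptor (4.87 ± 0.63, edgeR adjusted p = 0.0040), and *Pde2a*, a cyclic nucleotide phosphodiesterase (5.50 ± 0.40, edgeR adjusted p = 6.4e-04), and 1 was lower, *Corin*. Of the renin-angiotensin list 1 of 10 was higher (*Enpep*) and 1 lower (*Anpep*).

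In mesenchymal cells 5 of 13 nitric oxide genes were higher and 2 lower, against 9.47% and 2.33% of all genes. The 5 were *Gucy1a2*, a further cyclase subunit, *Prkg1*, the kinase that cyclic GMP activates, its substrate *Irag1*, *Pde5a*, which degrades cyclic GMP, and *Cav1*. *Irag1* was at 479 and 411 CPM in #m2c. *Corin*, a protease that activates natriuretic peptide, was at 931 and 749 CPM in arterial SMC, 30.1 CPM or less in both pools of #m8c and #m9c, and called higher in arterial than venous SMC (5.95 ± 1.24, edgeR adjusted p = 0.012). *Ece1* was lower there (-2.80 ± 0.43, edgeR adjusted p = 6.7e-04). In parenchymal cells 2 of 10 renin-angiotensin genes were higher and 1 lower, against 8.37% and 4.05% of all genes, and one of the higher was *Agt*, the precursor of angiotensin, at 326 and 309 CPM in cholangiocytes #p2 and 575 CPM in hepatocytes #p3.

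Among endothelial clusters 3 endothelin, 6 renin-angiotensin, 12 nitric oxide and 5 natriuretic peptide genes could be tested. In lymphatic #e4, *Ece1*, *Anpep*, *Cav1* and *Irag1* were called higher, against 4.92% of all genes. *Anpep* and *Cav1* were called lower in the sinusoidal group, against 1.16% of all genes, and *Pde9a*, a cyclic GMP phosphodiesterase, higher in #e1, against 1.32%. In #e2, *Nos2* was called higher and *Pde2a* lower (1 of 12 and 1 of 5 tested, against 1.85% higher and 0.0819% lower of all genes), with *Pde2a* at 386 and 309 CPM in #e2 and 2221 and 2141 CPM in #e7. *Pde2a* was also the 1 listed gene called between #e2 and #e1 (-2.47 ± 0.34, edgeR adjusted p = 0.0042). Between #e5c and #e2c, *Npr1* (-5.15 ± 0.61, edgeR adjusted p = 2.7e-04) and *Ddah1* were lower, against 1.46% of all genes. *Ren1*, *Agtr2*, *Edn2* and the natriuretic peptide genes *Nppa*, *Nppb* and *Nppc* stayed at 1.59 CPM or less in every cluster over both pools.

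By Pearson r over the same 55 sums and 18055 genes, the genes most like each of the 9 were as follows, without a test. *Ednra* was most like *Foxf1* (0.954), *Gucy1a1* most like *Susd2* (0.918), *Gucy1b1* most like *Gucy1a1* (0.911), *Agtr1a* most like *Sdc2* (0.908) and *Edn1* most like *Fbln2* (0.792). *Nos3* was most like its antisense neighbour *Gm15587* (0.975) and then *Emcn* (0.970), and *Ace* most like *Gm11651* (0.906), which overlaps it by 295 exon bases on the other strand. For *Ednrb* it was *Ppp1r14a* (0.793) and for *Npr3* *Fendrr* (0.746), the lowest of these values.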

How the data were processed

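The authors deposited counts of reads per gene and cell, not normalized. Per the labels, the submitters' processing notes name bcl2fastq, Bowtie, Bowtie2, Subread, featureCounts and Seurat and the builds GRCm38 and mm10, without versions. The authors removed poor cells before deposit and handled doublets with a ceiling on genes per cell. Here no caller for doublets was applied. Whether duplicate reads were removed is not given in the sources used here. A count without molecular identifiers can hold copies of 1 molecule, and longer genes gather more reads.

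Groups followed the labels (class and sex), and clusters are those of the study, drawn with multilevel or, where a name ends in c, community clustering. Across the mesenchymal class each cell was used in 1 cluster, and 5 cells in none. Raw counts without the 92 spike-ins were summed per cluster and pool, for sums of at least 5 cells, and fitted with edgeR 4.0.16 (R 4.3.3, TMM, filterByExpr, quasi-likelihood test, Benjamini-Hochberg adjustment over all genes tested). A sum of few cells is a noisy value, and the SE is the size of the log2 fold change over the root of its F. Clusters on a side count equally. Differences within a pool and correlations use log2(CPM + 1). Genes were compared per kilobase of GENCODE vM21 exons (GRCm38), and likeness used genes of at least 10 CPM in some sum. Depth per cell ran from 47063 to 1128421 counts, each share has an exact binomial 95% interval, and a share of 0 was bounded by 3 counts divided by its cells. Both cover counting error only. DESeq2 1.42.0 was an alternative. The edgeR step was tested on simulated data. Python 3.11.15, numpy 2.4.6, pandas 2.3.3, scipy 1.17.1 and matplotlib 3.10.9 were used.

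The text names the 9 genes, and of other pathway genes those called, with values for a few. One listed pathway gene is not reported here. The genes and lists were chosen with earlier results of these data known. Other alternatives were another normalization, no filter, other minimum cell numbers, thinned cells, plate-wise sums, a block for the pool, leaving out either pool, and other groupings of #e7 and #m5c. The clusters of a class come from the same 2 pools by the sample list, which pairs them. As a check, deviations of same-sex sums correlated at 0.128 to 0.208 over 6 pairs of classes, with a median of 0.125 over 45 pairs of mesenchymal and 0.0470 over 28 pairs of endothelial clusters.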

Additional observations from a re-analysis of the deposited data

Results flagged for a closer look

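In the lymphatic cluster #e4 (9 male and 13 female cells), *Ace* and *Ednrb* lay on opposite sides of the other endothelial clusters in the 2 pools. The difference of mean log2(CPM + 1) from the other clusters was -2.28 in the male and 3.17 in the female pool for *Ace*, and -2.39 in the male and 2.64 in the female pool for *Ednrb*. These differences between the pools were not tested, since each rests on a single sum per pool.

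*Gucy1a1* in the peribiliary cells #e5c against the vein cells #e2c was at 3.36 in the male pool (5 cells) and -6.42 in the female pool (9 cells) on the same scale, and this was not tested either.

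The 6 mesothelial cells #m16c (4 male and 2 female) were too few for a sum in either pool and entered no comparison. They held *Agtr1a* at 504 CPM, from 832 counts in 4 of the 6 cells, more than every cluster but #m7c and #m8c. No test of this level was made.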

How the results depend on the processing

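Over the 18 comparisons 49 calls of the 9 genes and 21879 calls of all genes were made. The totals were 65 and 41341 with DESeq2 (Wald test), 51 and 23400 with RLE normalization, 50 and 22513 with thinned cells, 70 and 36236 without a filter on low counts, 50 and 22083 with sums of at least 3 cells, and 51 and 18443 with sums per plate. They were 50 and 22026 with sums of at least 10 cells and 48 and 14378 with the replicate block, over 17 comparisons each. DESeq2 and the missing filter each moved the count of all genes by over 1.5 times in 16 of 18 comparisons. Sums per plate did so in 14, and the block in 4 of 17. The block moved it from 354 to 211 for #e2 and from 1245 to 796 for #e4. It moved it from 280 to 178 for #e5c against #e2c and from 6 to 0 for #m7c against #m3c. Other settings moved some comparisons too. With sums of at least 10 cells, genes called higher in the sinusoidal group went from 139 to 415. With sums of at least 3 cells, those higher in #m7c against smooth muscle went from 232 to 521. RLE normalization took those lower in #e5c against #e2c from 259 to 126. Of the 49 called log2 fold changes of the 9 genes, 1 turned its direction, in 2 of the settings run. A further 30 that were not called changed sign in some setting, none of them called there where a test could be made. *Agtr1a* in lymphatic cluster e4 against the other endothelial clusters went from 7.0 to -4.53 with sums of at least 10 cells (edgeR adjusted p = 0.87), which leave out the 9 male cells of #e4, and to -1.72 without the male pools. Without the female pools it was 7.60.

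The number of the 9 genes called in parenchymal cells went from 3 to 5 with DESeq2 or the block and to 6 without a filter and by plate. In immune cells it went from 5 to 9 with DESeq2 and without a filter. For #e2 against #e1 it went from 0 to 4 with DESeq2 and to 2 by plate, for #e5c against #e2c from 0 to 2 with DESeq2 and to 1 without a filter, and for #e4 from 4 to 2 by plate. For #e2 it went from 6 to 4 with the block and to 5 with DESeq2, at least 10 cells and sums per plate. For smooth muscle against fibroblasts it went from 5 to 2 by plate (*Ednra*, *Ace* and *Gucy1a1* were lost). For stellate cells against smooth muscle it went from 1 to 0 with DESeq2 and the block, to 4 without a filter and to 2 with sums of at least 3 cells, which let the 4 female #m7c cells in. For arterial against venous muscle it went from 1 to 2 with DESeq2, RLE, at least 10 cells, thinning and the block, and to 3 without a filter. For portal vein mural cells it went from 1 to 2 without a filter and 0 by plate, for #m7c against #m3c from 0 to 1 without a filter, and for second layer cells from 1 to 2 without a filter and 0 by plate. For cholangiocytes it went from 1 to 2 with DESeq2 and RLE and to 0 by thinning and by plate. The cause was not tested in any of these. The replicate block (pairing by pool) changed 10 single calls, all given with the results, and no other. In the parenchymal clusters the block could not be fitted, since no residual degree of freedom was left. Leaving out a pool leaves a value with no test, so no count of calls was made there. With a limit of 20 counts per cell 279 shares left their interval and 27 did not, and with thinned cells 147 levels moved by more than the pool spread and 159 did not. Some groups were small (6 female cells of #e3, 4 of #m7c, 22 cells of #e4), and their part in these shifts was not tested.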

Other observations

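*Nos3* was counted in 13 of 48 cells of the immune cluster #i4 (27.1%, exact 95% interval 15.3% to 41.8%), which mixes cycling cells and cells that the annotation calls Cont. Its level there was 30.7 CPM (male pool) and 21.6 CPM (female pool), and at most 2.09 CPM over both pools in the other immune clusters. Over all immune cells, the 26 annotated as Cont held 36.9 CPM, with 3.42 (6 male cells) and 47.2 CPM (20 female cells), and the 24 cycling cells 13.8 CPM, with 47.5 (5 male cells) and 0.814 CPM (19 female cells). The 5 endothelial markers summed to 1622 CPM in #i4, and 3 Kupffer cell markers to 6639 CPM. Their part in the level of *Nos3* was not tested.

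In hepatocyte cluster #p3, whose 23 cells were all male, 7 cells held *Gucy1a1* (30.4%, interval 13.2% to 52.9%), at 64.9 CPM in all. Only 1 cell reached 20 counts, and the 19 cells of 1 plate were at 1.72 CPM.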
